A study of Homo sapiens with 8 samples.

Results

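The genes described here are 30 target genes of the transcription factor p53. They were chosen by name as well-known targets, with earlier results of these data known. They were followed on arrays of the side population (SP) and the main population (MP) of 4 lung cancer cell lines. Of the 30, 28 were read by a probe set that carries no other gene symbol, and the brightest such probe set stood for the gene. FDXR and BTG2 are not analysed here. The whole table held 19775 genes by the same rule. Of the 28, 27 were at or above the signal filter, a mean log2 signal of 6.00 over the 8 arrays, as were 12312 of all genes. The exception was SPATA18, whose values are given without a test.

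SP cells expel a Hoechst dye by way of ABCG2 and similar transporters, and MP cells keep it. Living cells of each line were stained, sorted into both populations and measured on 1 array per population, 8 arrays in all, with no drug or genetic treatment. All 4 are established lines, A549 and H460 with a K-Ras mutation and H1650 and H1975 with an EGFR mutation. With 2 lines of each kind, the K-Ras or EGFR mutation cannot be told apart from anything else in which these pairs of lines differ.

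The p53 protein is held low in resting cells by MDM2, which marks it for degradation, and by MDM4, which covers its activating part. After DNA damage or other stress it is stabilised, binds its response elements and switches on genes that halt the cell cycle, repair DNA, alter metabolism, start cell death or shut p53 down again. Other factors can drive many of the same genes without it.

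The deposited values are log2 MAS5 signals, scaled by the authors so that a trimmed mean of the linear signal is alike on all arrays. Signals of different probe sets are not comparable as amounts, so every comparison below is within a gene or, for sums of cell type markers, within the same set of genes. All 5 epithelial markers (EPCAM, CDH1, KRT8, KRT18 and KRT19) had a mean over the 8 arrays above the filter. In H460, however, CDH1 (1.61 in SP and 0.63 in MP) and EPCAM (5.97 and 5.25) were below it, while KRT8, KRT18 and KRT19 were above it on every array. Of other cell types, 2 of 4 leukocyte or blood markers (CD14 and HBB) and 1 of 4 endothelial markers (PECAM1) had a mean above it. So did 4 of 5 fibroblast markers (COL1A1, COL3A1, THY1 and DCN), beside 12312 of all 19775 genes. COL1A1 was highest in H1975 (line mean 12.97) and COL3A1 in H460 (10.53). The leukocyte genes PTPRC and CD3E, the endothelial genes VWF, CDH5 and TEK and the fibroblast gene PDGFRB were below. The log2 of the summed linear signals of the epithelial markers was 14.68 to 15.96 in SP and 14.61 to 15.96 in MP. That of the fibroblast markers was 10.2 to 13.0 and 9.95 to 13.1. A signal is an average over the sorted cells, so fewer cells with a transcript and less transcript per cell cannot be told apart. The transporter gene ABCG2, which marks the SP, was lower in SP than in MP by its labels in H1650 (log2 ratio -0.70) and higher in A549 (1.08), H460 (0.36) and H1975 (1.17). The labels of H1650 were kept, and all its SP over MP directions depend on them. The mean of a line does not depend on which of its arrays is SP.

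The response element of p53 is made of 2 adjoining elements of 10 bases, and near matches to it stood close to the start of several of these genes. RefSeq promoter windows (GRCh38.p14, from 250 bases before to 50 bases after a transcript start) were held for 24 of the 30 genes. In them, 8 genes had a match to the p53 consensus with at most 3 mismatches in 20 bases and with the central C and G of both elements kept, read on both strands, on which the palindromic consensus is alike. Of all 35116 windows 1.12% held such a match, and of the 27305 gene symbols with at least 1 window 1.37% did. The matches are shown because p53 is known to reach its target genes through sequences of this kind. Whether p53 uses these very matches was not tested. The 20 matched bases are in capitals and up to 5 neighbouring bases in lower case, each on the strand of the gene. A match is a description of letters and no evidence of binding in these cells, and no match says only that the letters are not in this window.
DDB2 (chr11:47214969-47214988, + strand, 1 mismatch): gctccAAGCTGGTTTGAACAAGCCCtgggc
AEN (chr15:88621306-88621325, + strand, 2 mismatches): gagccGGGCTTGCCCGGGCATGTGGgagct
FAS (chr10:88991309-88991328, + strand, 2 mismatches): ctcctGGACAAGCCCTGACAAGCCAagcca
MDM2 (chr12:68808923-68808942, + strand, 2 mismatches): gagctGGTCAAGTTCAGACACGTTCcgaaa
FDXR (chr17:74872996-74873015, - strand, 3 mismatches): ggcccGGGCAGGAGCGGGCTTGCCCtgcgg
GDF15 (chr19:18386186-18386205, + strand, 3 mismatches): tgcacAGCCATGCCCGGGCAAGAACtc
RPS27L (chr15:63157527-63157546, - strand, 3 mismatches): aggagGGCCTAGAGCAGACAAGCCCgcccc
SESN1 (chr6:109009018-109009037, - strand, 3 mismatches): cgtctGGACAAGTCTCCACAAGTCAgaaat
The match of DDB2 ran across the transcript start, from position -5, and that of GDF15 began at position 29 after it, while the match of FAS began farthest upstream, at position -122.

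The lines were compared first, the K-Ras mutant A549 and H460 against the EGFR mutant H1650 and H1975. Of the 28 genes 22 had a higher mean log2 signal in A549 and H460 than in H1650 and H1975, against 47.1% of all genes. The median difference was 0.54 against -0.053 over all genes. Because the genes were chosen with earlier results of these data known, these counts are not independent of those results. With 2 lines on each side no gene passed limma on the line means at an adjusted p under 0.05, among the 27 or among all genes (0%). At an unadjusted p under 0.05, FBXO22, TRIAP1, RPS27L and CYFIP2 were higher, 4 of 27 against a background of 4.22%, and 0 of 27 were lower against 5.18%. CYFIP2 passed the signal filter only through A549 and H460 and so had to differ, and its place in the counts of tested genes is no result. An exact permutation test of 2 lines against 2 cannot give a two-sided p below 0.333. When the 8 arrays were taken as samples, 16 of 27 were higher at an adjusted p under 0.05 against 27.4% of all genes, and ZMAT3 and SUSD6 were lower, 2 of 27 against 28.8%. Those p-values are too small for a property of the lines, since both arrays of a line come from the same line.

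All 4 arrays of A549 and H460 lay above all 4 arrays of H1650 and H1975 for 8 of the 28 genes, against 8.88% of all genes. These were CYFIP2, SPATA18, FBXO22, SESN1, CCNG1, TRIAP1, XPC and RPS27L. The reverse held for ZMAT3 alone, 1 of 28 against 10.3%.

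**Figure D1:**
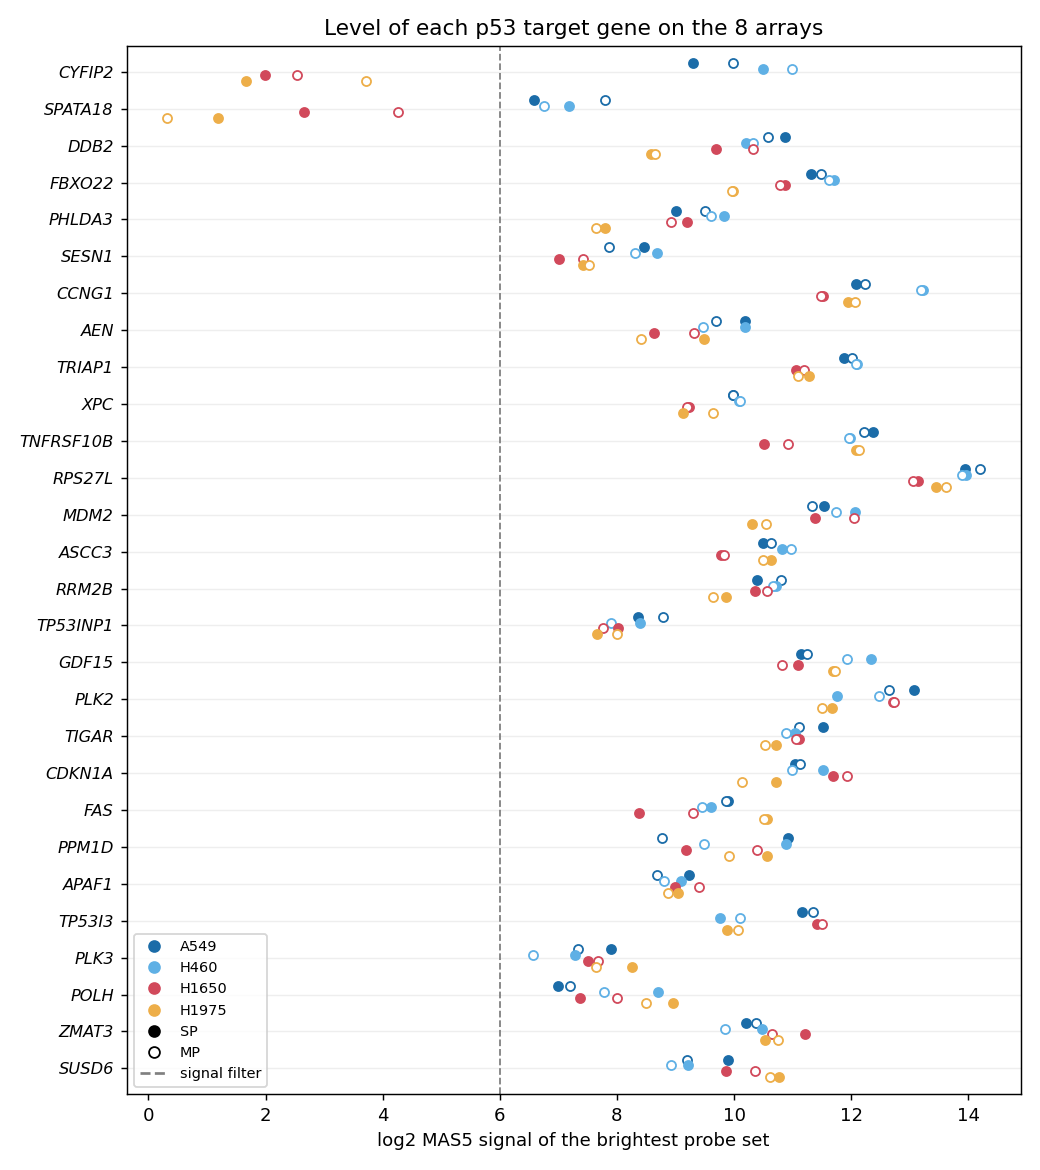
Log2 MAS5 signal (horizontal axis) of the 28 measured p53 target genes (vertical axis, ordered by the difference between A549 with H460 and H1650 with H1975) on each of the 8 arrays, with lines by colour, SP as filled and MP as open points, and the signal filter of 6.00 as a dashed line. CYFIP2 and SPATA18 at the top have all points of H1650 and H1975 far to the left, between 0.32 and 4.26, while most other genes spread over less than 2 log2 units.

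Levels differed between at least some of the 4 lines for 21 of the 27 genes (limma F test, adjusted p under 0.05), against 76.2% of all genes tested. ZMAT3, TP53INP1, AEN, PLK3, APAF1 and PPM1D did not pass. Each line entered with its 2 sorted populations as the only measure of spread, so these p-values measure the spread between populations and not between cultures. Of 162 pairs of lines over the 27 genes, 77 differed (limma, adjusted over all genes and pairs), 47.5% against 48.2% of all pairs. Neighbours in the order of the 4 lines differed in 18 of 81 cases, against 28.3% over all genes tested. H1650 was the lowest line for 11 of the 28 genes (26.9% of all genes had it lowest) and H1975 for 11 (21.5%). A549 was lowest for 1 (20.9%) and H460 for 5 (30.7%). H460 was the highest line for 11 genes (21.3%) and A549 for 8 (24.2%), against 4 in H1650 (23.4%) and 5 in H1975 (31.1%).

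Among the genes that halt the cell cycle, the order of the lines did not follow this pairing. CDKN1A encodes p21, the inhibitor of cyclin-dependent kinases that carries out the arrest by p53. Its log2 signals, in the order SP then MP, were 11.03 and 11.13 in A549, 11.52 and 10.99 in H460, 11.69 and 11.93 in H1650, and 10.72 and 10.14 in H1975. Both arrays of H1650 were above all others and both of H1975 below all others, so the groups of the split overlapped and the line difference was 0.05 with an SE of 0.54 (limma adjusted p = 0.983). H1975 was below A549, its neighbour in the order, by 0.65 (limma adjusted p = 0.0422), while H1650 over H460 was not past the test (0.56, limma adjusted p = 0.0704).

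PLK2, a polo-like kinase induced by stress, had 13.08 and 12.64 in A549, 11.76 and 12.47 in H460, 12.71 and 12.73 in H1650, and 11.68 and 11.50 in H1975. A549 and H1650 were high, H1975 was low, and the arrays of the 2 sides overlapped (difference 0.33, SE 0.49). PLK3, another polo-like kinase of the stress response, ran from 6.57 to 8.26 over the arrays, with line means of 7.62, 6.93, 7.59 and 7.95 in A549, H460, H1650 and H1975. GDF15, a secreted factor of the TGF-β family that rises in stressed cells, had 11.15 and 11.25 in A549, 12.34 and 11.92 in H460, 11.09 and 10.82 in H1650, and 11.69 and 11.72 in H1975. H460 was above and H1650 below the rest on each of their arrays, and 1 line of each side was thus high. H1975 was above A549 by 0.51 (limma adjusted p = 0.0264). The GDF15 probe set is of a class whose probes can also match other transcripts.

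The genes that shut p53 down again fell into different patterns. MDM2, the ubiquitin ligase of p53, had 11.53 and 11.32 in A549, 12.06 and 11.73 in H460, 11.38 and 12.05 in H1650, and 10.30 and 10.55 in H1975. In this brightest probe set H1975 alone stood low, 1.00 below A549 (limma adjusted p = 0.00924), while the MP array of H1650 reached the level of H460. The line difference of MDM2 was 0.59 with an SE of 0.53 (limma adjusted p = 0.746), and the second brightest probe set gave -0.31. There A549 (line mean 9.68) was below H1975 (9.77), while in the next brightest H1975 was again lowest (6.15). CCNG1, cyclin G1, which works with a phosphatase to activate MDM2, had 12.09 and 12.23 in A549, 13.22 and 13.19 in H460, 11.51 and 11.48 in H1650, and 11.94 and 12.07 in H1975. H460 was highest and H1650 lowest, and the lower array of A549 was only just above the higher array of H1975. The difference was 0.93 with an SE of 0.44 (limma adjusted p = 0.583).

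FBXO22, the substrate-binding part of a ubiquitin ligase, had 11.31 and 11.48 in A549, 11.70 and 11.61 in H460, 10.86 and 10.78 in H1650, and 9.99 and 9.97 in H1975. The 2 arrays of each line lay close together and the 2 sides did not overlap (difference 1.13, SE 0.41, limma adjusted p = 0.517). A549 was above H1650 by 0.58 (limma adjusted p = 0.00723) and H1650 above H1975 by 0.84 (limma adjusted p = 0.00123). PPM1D, the phosphatase WIP1 that removes activating phosphates from p53 and its kinases, had line means from 9.78 in H1650 to 10.24 in H1975, a smaller range than that between the populations of A549. Its line difference was 0.01 with an SE of 0.39. MDM4, which is not among the 30 genes but holds p53 down together with MDM2, had 10.91 and 10.74 in A549, 11.19 and 11.08 in H460, 10.20 and 9.94 in H1650, and 9.72 and 10.18 in H1975. Its 4 arrays of A549 and H460 all lay above the others, with a difference of 0.97 (SE 0.33, limma adjusted p = 0.504).

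The genes of DNA repair and nucleotide supply are DDB2, XPC, RRM2B, ASCC3 and POLH, none of which passed limma on the line means. DDB2, which finds ultraviolet lesions in chromatin, had 10.88 and 10.58 in A549, 10.21 and 10.32 in H460, 9.70 and 10.33 in H1650, and 8.59 and 8.64 in H1975. H1975, with a mean of 8.61, stood below H1650 with 10.01 (limma adjusted p = 0.00155), while the MP array of H1650 reached the level of H460, so that the sides overlapped. The DDB2 difference of 1.18 had an SE of 0.60 (limma adjusted p = 0.603). XPC, which detects distorted DNA in the same repair pathway, had 9.98 and 9.98 in A549, 10.08 and 10.10 in H460, 9.24 and 9.20 in H1650, and 9.12 and 9.64 in H1975. Here the sides did not overlap (difference 0.73, SE 0.37, limma adjusted p = 0.601).

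RRM2B, the p53-inducible subunit of ribonucleotide reductase, had line means of 10.60, 10.68, 10.46 and 9.74 in A549, H460, H1650 and H1975, and H1975 was below H1650 by 0.72 (limma adjusted p = 0.0130). ASCC3, a helicase used in the repair of alkylated DNA, had 10.55, 10.89, 9.80 and 10.56 in the same order of lines. For ASCC3 the low line was H1650, 0.75 below A549 (limma adjusted p = 0.00338). POLH, a polymerase that copies past ultraviolet lesions, went the other way in its mean, with 7.09, 8.23, 7.68 and 8.73. Of its neighbouring lines none differed, and its 6 probe sets did not share a direction.

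The receptors and effectors of cell death came next. TNFRSF10B, a receptor of the death ligand TRAIL, had 12.36 and 12.22 in A549, 11.98 and 11.97 in H460, 10.51 and 10.93 in H1650, and 12.08 and 12.13 in H1975. Only H1650 was low, 1.26 below H460 (limma adjusted p = 0.000387), and H1975 lay between A549 and H460. FAS, the receptor of Fas ligand, had 9.89 and 9.86 in A549, 9.60 and 9.46 in H460, 8.38 and 9.30 in H1650, and 10.55 and 10.51 in H1975. H1975 was above and H1650 below all other arrays, and the difference between the sides was 0.02 (SE 0.68). None of the neighbouring lines of FAS differed at the threshold, although the lines differed as a whole (limma F test, adjusted p = 0.00382).

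TP53I3, a quinone oxidoreductase, split the lines in another way. It had 11.16 and 11.34 in A549, 9.76 and 10.09 in H460, 11.42 and 11.50 in H1650, and 9.87 and 10.07 in H1975. A549 and H1650 were high, H460 and H1975 were low, and A549 was 1.28 above H1975 (limma adjusted p = 0.000186), so that the line difference was -0.13 (SE 0.73). PHLDA3, which holds back the survival kinase Akt, had 9.01 and 9.50 in A549, 9.83 and 9.60 in H460, 9.19 and 8.93 in H1650, and 7.79 and 7.64 in H1975. H1975 stood apart, 1.34 below H1650 (limma adjusted p = 0.00241), and its 2 probe sets above the filter gave differences of 1.10 and 0.99. AEN, a nuclease of apoptotic cells, had line means of 9.94, 9.83, 8.97 and 8.95 in A549, H460, H1650 and H1975. The line difference of AEN was 0.92 with an SE of 0.38 (limma adjusted p = 0.552), and the arrays of both sides overlapped. APAF1, the scaffold of the apoptosome, was nearly level, with line means from 8.95 to 9.20.

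TRIAP1, a mitochondrial protein that holds back apoptosis, had 11.88 and 12.01 in A549, 12.09 and 12.09 in H460, 11.05 and 11.19 in H1650, and 11.27 and 11.09 in H1975. Every array of A549 and H460 was above those of the other two lines, by a difference of 0.87 (SE 0.25, limma adjusted p = 0.454). RPS27L, a ribosomal protein close to RPS27, had 13.94 and 14.20 in A549, 13.96 and 13.90 in H460, 13.14 and 13.06 in H1650, and 13.44 and 13.61 in H1975. The sides did not overlap (difference 0.68, SE 0.20, limma adjusted p = 0.454), and H1975 was above H1650 by 0.43 (limma adjusted p = 0.0139). The 3 probe sets of RPS27L above the filter shared this direction.

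CYFIP2 had the largest line difference of the 27 tested genes. It encodes a subunit of the WAVE complex, which drives the branching of actin filaments. Its log2 signals were 9.29 and 9.98 in A549, 10.49 and 10.99 in H460, 1.99 and 2.54 in H1650, and 1.67 and 3.72 in H1975. The first pair of lines was far above the filter and the other pair far below it, and the sides did not overlap. The difference of 7.71 is given without a test, because the gene passed the filter only through the lines in which it was high. Its size rests on dim signals, since with every linear signal below 32 set to 32 the difference was 5.19, a 36.4-fold ratio. A dimmer probe set of CYFIP2, below the filter in its mean, gave 5.55. SPATA18, a protein of mitochondrial quality control, had the same arrangement at a lower signal, with 6.58 and 7.79 in A549, 7.18 and 6.75 in H460, 2.66 and 4.26 in H1650, and 1.18 and 0.32 in H1975. With this floor its difference of 4.97 became 2.08, and its other probe set gave 0.52.

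Genes of metabolism and of the stress response made up the rest. SESN1, a sestrin that restrains the growth kinase mTORC1, had 8.47 and 7.86 in A549, 8.68 and 8.31 in H460, 7.01 and 7.43 in H1650, and 7.42 and 7.52 in H1975. The sides did not overlap (difference 0.98, SE 0.48, limma adjusted p = 0.593). TIGAR, an enzyme that slows glycolysis, had line means of 11.31, 10.95, 11.08 and 10.62 in A549, H460, H1650 and H1975, and no neighbours in this order differed. TP53INP1, a nuclear stress protein that promotes the phosphorylation of p53, had 8.57, 8.15, 7.90 and 7.84. Its lines did not pass the F test (limma adjusted p = 0.142).

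ZMAT3 and SUSD6 had higher means in H1650 and H1975. ZMAT3, an RNA-binding zinc finger protein, had 10.21 and 10.37 in A549, 10.48 and 9.84 in H460, 11.21 and 10.64 in H1650, and 10.53 and 10.75 in H1975. All arrays of H1650 and H1975 lay above the others, though by little, and the difference was -0.56 (SE 0.33, limma adjusted p = 0.638). All 5 probe sets of ZMAT3 gave a negative difference, from -0.93 to -0.22. SUSD6, a membrane protein, had 9.89 and 9.20 in A549, 9.20 and 8.92 in H460, 9.86 and 10.35 in H1650, and 10.76 and 10.61 in H1975. H1975 was highest and H460 lowest, the SP arrays of A549 and H1650 were alike, and the difference was -1.09 (SE 0.43, limma adjusted p = 0.549).

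**Figure D2:**
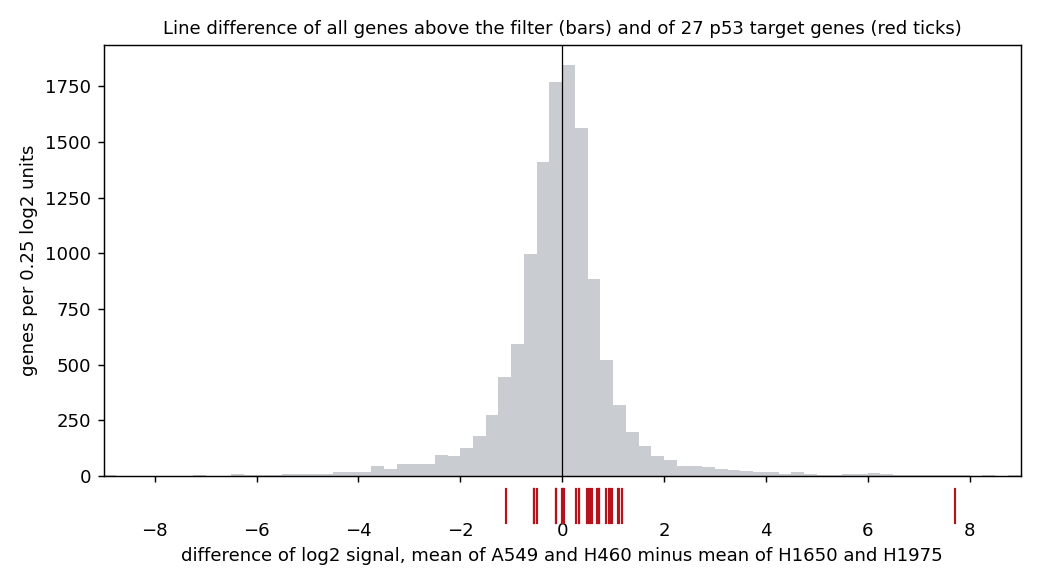
Histogram of the difference of log2 signal between the mean of A549 and H460 and the mean of H1650 and H1975 (horizontal axis) over the 12312 genes above the filter (vertical axis, genes per 0.25 log2 units), with the 27 tested p53 target genes as red ticks below. Most ticks lie between 0 and 1.2, CYFIP2 stands at 7.71, and the lowest is SUSD6 at -1.09.

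Several genes were read by more than 1 probe set. The 28 genes had 72 probe sets, 58 of them above the filter, and 12 genes had more than 1 above it. In 7 of the 12 all these probe sets gave the same direction of the line difference (ASCC3, FAS, PHLDA3, PLK3, RPS27L, TNFRSF10B and ZMAT3). In MDM2, FBXO22, POLH, APAF1 and PPM1D they did not. The 7 probe sets of MDM2 ran from -0.42 to 1.39. Of the 5 of FBXO22 only a dim one gave a value below 0, -0.12, and the 3 brightest gave 1.13, 0.84 and 0.60.

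**Figure D3:**
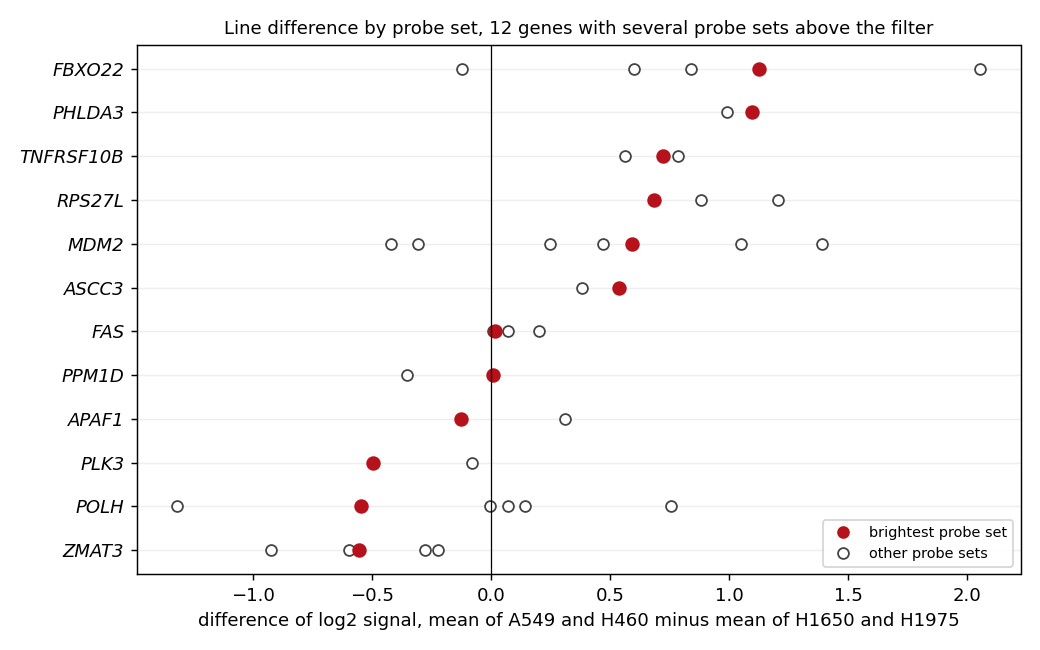
Difference of log2 signal between A549 with H460 and H1650 with H1975 (horizontal axis) for each probe set above the filter of the 12 p53 target genes with more than 1 (vertical axis), with the brightest as a red and the others as open points. The points of ZMAT3 all lie below 0 and those of PHLDA3, TNFRSF10B and RPS27L all above, while those of MDM2 run from -0.42 to 1.39.

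The study's own comparison was that of SP with MP cells of the same line. No p53 target gene passed limma with the line as a block, 0 of 27 at an adjusted p under 0.05 against 0% of all genes. At an unadjusted p under 0.05 there was 1, CYFIP2, against 3.05%, with signals below the filter on all arrays of H1650 and H1975. Without H1650 again 0 of 27 passed limma, against 0.203%. At an unadjusted p under 0.05, AEN, TIGAR, PLK3, SUSD6, APAF1 and PPM1D were then higher in SP, 6 of 27 against 8.11%. TP53I3 (mean log2 ratio -0.24, limma unadjusted p = 0.0492) and CYFIP2 (-1.08, limma unadjusted p = 0.0113) were lower in SP. The share of all genes lower at that p was not counted. Another PLK3 probe set above the filter was lower in SP in A549, H460 and H1975. PPM1D, whose name stands beside the study's heat map of genes selected on these arrays, had an adjusted p of 0.0881 by limma over A549, H460 and H1975, and AEN, with a mean log2 ratio of 0.76, one of 0.0970.

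Within each line, which has 1 array on each side and so no test, few of the genes reached a 2-fold change. In A549, 1 of 27 was at least 2-fold higher in SP (2.88% of all genes) and 0 were lower (1.43%). In H460 the counts were 1 (1.98%) and 0 (1.42%), in H1650 they were 0 (1.03%) and 1 (2.01%), and in H1975 they were 1 (1.78%) and 1 (2.36%). The gene was PPM1D in A549, H460 and H1650, AEN among the higher and CYFIP2 among the lower in H1975.

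The direction of the smaller ratios varied with the line. SP was above MP for 12 of 28 genes in A549 (53.3% of all genes), 22 in H460 (45.8%), 9 in H1650 (47.4%) and 16 in H1975 (43.5%). The median log2 ratio of the 28 genes was -0.09 in A549 and 0.19 in H460, and -0.19 in H1650 and 0.09 in H1975, beside 0.04, -0.03, -0.02 and -0.06 over all genes. The same direction in all 4 lines was seen for 3 of 28, against 10.6% of all genes.

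Those 3 were TIGAR, TP53I3 and CYFIP2. For TIGAR the log2 ratio was 0.40, 0.15, 0.04 and 0.19 in A549, H460, H1650 and H1975, with a mean over the 4 lines of 0.20 ± 0.15 (SD, limma adjusted p = 0.945). TP53I3 had -0.18, -0.33, -0.08 and -0.20, a mean of -0.20 ± 0.10 (limma adjusted p = 0.945). CYFIP2 had -0.69, -0.50, -0.55 and -2.05, a mean of -0.95 ± 0.74 (limma adjusted p = 0.945). The ratios of CYFIP2 in H1650 and H1975 are between signals below the filter, and with the floor of 32 both were 0 and the mean was -0.30.

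PPM1D had the widest range of ratios among the 27 tested genes. Its log2 signal was 10.92 in SP and 8.77 in MP of A549, 10.89 and 9.49 in H460, 9.18 and 10.39 in H1650, and 10.56 and 9.91 in H1975. SP was the higher in 3 lines and the lower in H1650, with ratios of 2.15, 1.39, -1.21 and 0.65. The mean of 0.75 ± 1.44 (SD, n = 4 lines) was smaller than the spread between lines (limma adjusted p = 0.945). A dimmer probe set of PPM1D, with a mean log2 signal of 6.10, had ratios of 2.33, 2.44, -1.60 and 0.61 in the same lines. The study describes its selected genes as changed in all 4 lines, with an average change of 2-fold. By the labels used here PPM1D did not change in the same direction in all 4 lines, with -1.21 in H1650. The study does not give the scale of its average, so the mean log2 ratio of 0.75 cannot be set against it. Since its name stands beside the heat map of genes selected on these arrays, its direction is not independent evidence.

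AEN had ratios of 0.50, 0.72, -0.69 and 1.07 in the same order, again with H1650 apart (mean 0.40 ± 0.76, limma adjusted p = 0.945). PLK3 had 0.57, 0.72, -0.16 and 0.62. SUSD6 had 0.70, 0.29, -0.49 and 0.15, and APAF1 had 0.55, 0.30, -0.41 and 0.18, so that each of these, like PPM1D, was above 0 in 3 lines and below 0 in H1650. CDKN1A did not share this pattern, with -0.09, 0.53, -0.24 and 0.58 (mean 0.19 ± 0.42, limma adjusted p = 0.945), nor did MDM2, with 0.21, 0.32, -0.67 and -0.25 (mean -0.10 ± 0.46, limma adjusted p = 0.957).

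**Figure D4:**
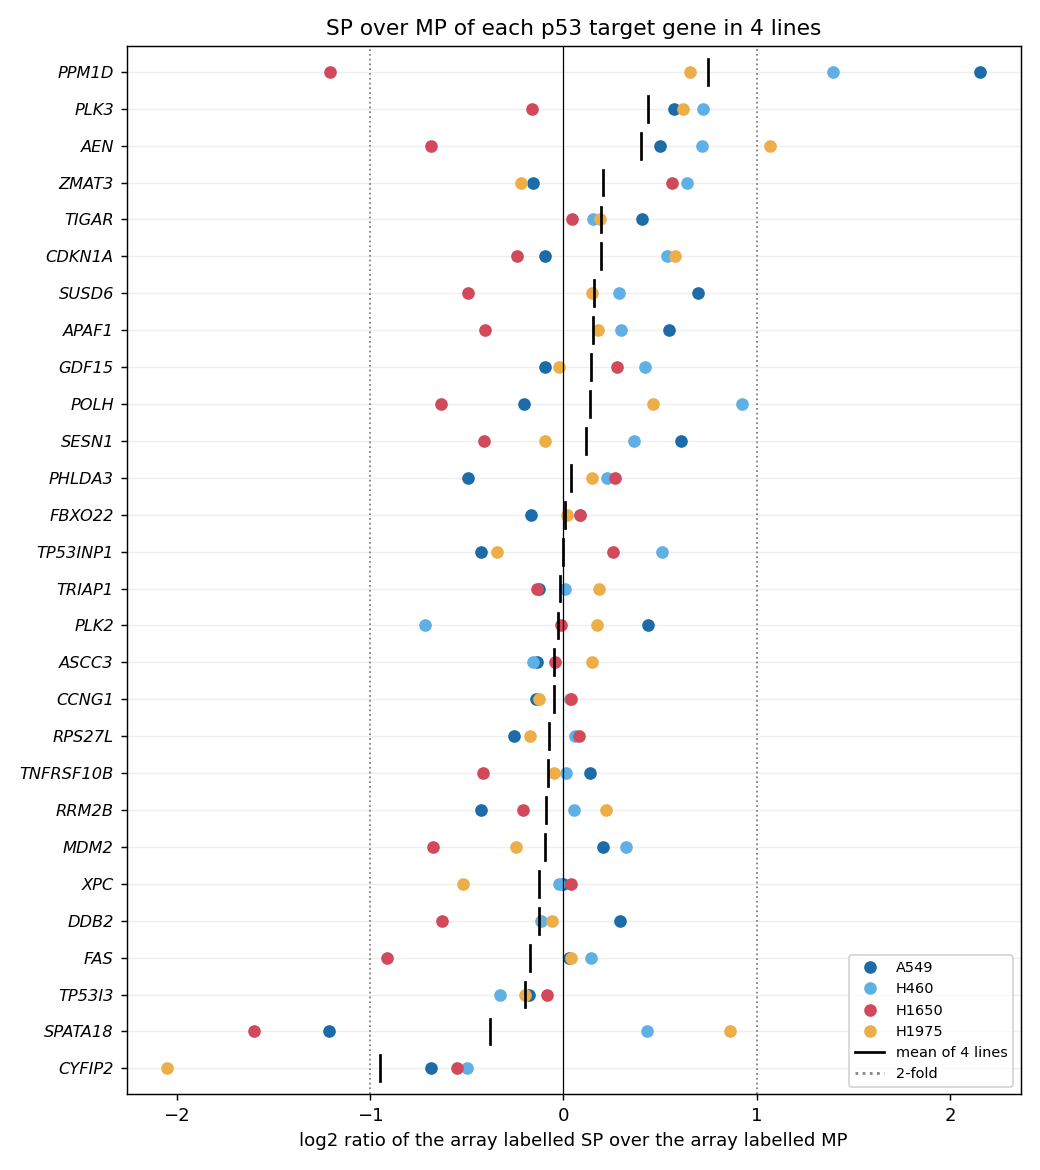
SP over MP as a log2 ratio by the arrays' labels (horizontal axis) of the 28 measured p53 target genes (vertical axis, ordered by the mean), with 1 point per line, the mean of the 4 lines as a black bar and dotted lines at a 2-fold change. The points of PPM1D run from -1.21 in H1650 to 2.15 in A549, and those of most genes lie within the dotted lines.

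The difference of the population effect between lines was tested directly. Between A549 with H460 and H1650 with H1975 no gene passed the limma interaction, 0 of 27 against 0%. The smallest unadjusted p of the 27 were those of MDM2 (0.0106) and PPM1D (0.0140), each with an adjusted p of 0.947 by limma. The share of all genes at such an unadjusted p was not counted. The second brightest MDM2 probe set had ratios of -0.15, 0.10, -0.71 and 0.26 in A549, H460, H1650 and H1975. Its sign was thus the reverse of the brightest in A549 and H1975. Taking 1 line against the other 3, with the lone line assumed to vary like the others, 0 of 27 genes passed in A549 (0%), H460 (0%), H1650 (0.333%) and H1975 (0.0406%). For H1650, 8 of 27 had an unadjusted p under 0.05 against 12.1% of all genes, namely PPM1D, AEN, FAS, SUSD6, APAF1, DDB2, MDM2 and TNFRSF10B. Each of the 8 had a lower ratio in H1650 than the mean of the other lines. The smallest adjusted p was that of PPM1D (limma, 0.108).

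Genes of the cell cycle that p53 is known to repress through p21 and the DREAM complex also differed in direction between H1650 and the other lines. Of 16 such genes, SP was above MP in 15, 12, 1 and 16 in A549, H460, H1650 and H1975, with median log2 ratios of 0.49, 0.27, -0.61 and 0.72. Their part in the ratios of the p53 target genes was not tested. Between the lines this list had a median difference of 0.17, with 10 of 16 higher in A549 and H460 and 0 past limma on the line means (0%).

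Other genes of the pathway were counted in the same way between the lines. Of 20 measured p53 relatives and regulators 7 had a higher mean there, with a median difference of -0.36, and all 4 arrays were above the rest in 2 and below in 5. Of 25 further p53 target genes 12 had a higher mean, with a median of -0.03, and the arrays were all above in 0 and all below in 1. With the 8 arrays as samples, 5 of 22 tested genes of that list were higher and 9 lower (limma, adjusted p under 0.05). Of 11 cyclins, kinases and inhibitors that work with p21, 5 had a higher mean and the median was -0.07. None of these lists had a gene past limma on the line means or between SP and MP. The difference between these counts and the 22 of 28 above was not tested.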

How the data were processed

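RNA of the SP and MP cells of A549, H460, H1650 and H1975 was hybridised to Affymetrix HG-U133 Plus 2.0 arrays. The values deposited by the authors are log2 MAS5 signals (GCOS 1.4 and MAS5 by the submitters' processing notes). The 2% trimmed mean of the linear signal ranged from 500.056 to 500.065 and the median log2 signal from 5.92 to 6.29, so the deposited log2 values were scaled but not centred by gene. No detection call and no scan date was used, and the number of arrays limits the precision. The log2 difference of 3' and 5' control probe sets was 0.23 to 0.65 for ACTB and -0.18 to -0.03 for GAPDH.

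Of 54675 probe sets, 62 are controls, 41097 have 1 gene symbol in the platform annotation, 1801 several and 11777 none. A gene was read by its brightest probe set of 1 symbol, and genes with a mean log2 signal of at least 6.0021 (the median) were tested. The p53 genes and the other gene lists were chosen with earlier results of these data known, so nothing here is independent of those. All 30 genes were to be named, with values per array where they passed a test. Of other genes MDM4 and ABCG2 were named, and of the remaining lists those past the test between A549 with H460 and H1650 with H1975, of which there were none. The cell type markers are exceptions.

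Tests used limma 3.58.1 under R 4.3.3 (a linear model with moderated variances and a mean trend, Benjamini-Hochberg adjustment over all genes tested, adjusted p under 0.05) and were tested on simulated data. Levels across lines were fitted on 8 arrays with population as a term, the 2 sides on 4 line means, and SP against MP with the line as a block. The line pairs the arrays by design. As a check, deviations of SP and MP arrays from their population means correlated over genes with r = 0.887 to 0.940 within a line, and negatively with every other line. Deviations from a mean over the lines cancel out, so the negative values are partly set by the centring. Within a line, a log2 ratio of 1 counted as 2-fold. Alternatives were linear signals with a floor of 32 or with 16 added, quantile normalization, no filter, the mean of all probe sets, no variance trend, no population term, no block, SP or MP arrays alone, 8 arrays as samples, each line or array left out, and the H1650 labels exchanged. Promoter windows and their coordinates come from RefSeq. Some items are not reported here.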

Additional observations from a re-analysis of the deposited data

Results flagged for a closer look

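In sets of 4 values, 1 per line, a line was marked where its gap to the nearest other line took up a larger share of the whole range than Dixon's critical value for 4 values. Of 84 sets, 6 were past it, and chance alone marks about 1 in 20. The log2 ratio of SP over MP was apart for PHLDA3 in A549 (-0.49, next value 0.15), for FAS in H1650 (-0.91, next 0.03), for XPC in H1975 (-0.52, next -0.02), for PLK3 in H1650 (-0.16, next 0.57) and for CYFIP2 in H1975 (-2.05, next -0.69). The log2 signal of DDB2 among the MP arrays was apart in H1975 (8.64, next 10.32). In another PLK3 probe set above the filter, the ratio of H1650 (-0.58) lay between those of H1975 (-1.21) and H460 (-0.28).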

How the results depend on the processing

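A limit is that 2 lines stand on each side of the line comparison and 1 array per population within a line. Dim signals have no floor in MAS5, which sets the size of the CYFIP2 and SPATA18 differences. Taking the 8 arrays as samples in place of the line means, 18 of the 27 genes passed in place of 0. Of these 16 were higher and 2 lower, and of all genes 27.4% were higher and 28.8% lower. Exchanging the H1650 labels, a setting that earlier results of these data prompted, 2 genes passed between SP and MP, AEN and PPM1D, in place of 0. Both had a ratio below 0 in H1650 alone, so the exchange had to make all their ratios positive. In that setting 192 of the 12312 genes tested were higher in SP and 18 lower. The 2-fold count in H1975 was 1 with a floor or with a pseudocount, in place of 2. That of A549 was 2 and that of H1650 was 2 without the filter, and those of A549 and H460 were 2 and 2 with the mean of all probe sets, each in place of 1. The count of genes whose arrays of A549 and H460 all lay above the others, 8 of 28, was 12 to 15 with a line left out, where fewer arrays have to be ordered and 17.9% to 20.3% of all genes met this. The count with a higher mean, 22, was 19 to 21 then, against 44.3% to 50.1% of all genes.

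Of the line differences recomputed for single genes, 315 kept their direction and side of the threshold, 18 passed it with the 8 arrays as samples and 18 changed direction. PPM1D was -0.17 with the mean of its probe sets and -1.02 in MP arrays alone, FAS -0.25 in MP arrays alone, and APAF1 0.14 in SP arrays alone. With a line left out the difference ran from -0.64 to 0.74 for CDKN1A, -0.83 to 0.86 for FAS, -0.13 to 0.80 for GDF15, -0.053 to 1.23 for MDM2, -0.23 to 0.90 for PLK2, -1.12 to 0.026 for POLH, -0.22 to 0.23 for PPM1D and -0.87 to 0.62 for TP53I3.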
